A study of Mus musculus with 6 samples.

Results

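Hepatic expression of Agt, which encodes angiotensinogen, and of 7 genes that act on or respond to its peptide products was examined in acute ethanol-exposed mice. The 8 genes were taken by gene name from the 28880 genes of the liver RNA-seq table, and all 8 passed the filter on low counts. They were chosen by name with the fold changes and DEG calls of these same libraries known, and the study itself picked Agt as upregulated here, so every value given for them is a description and carries no test. Livers came from 3 ethanol-exposed and 3 control mice, all wild type male C57BL/6J aged 6 to 8 weeks, labelled as batch 1. Ethanol-exposed mice were fasted for 12 h, received 50% (v/v) ethanol by oral gavage at 6 g/kg, and were sampled after 24 h. Control mice received no ethanol, and the sources used here do not say whether they were fasted or gavaged, so ethanol, fasting and gavage cannot be told apart. Each library is labelled as a separate mouse, and whether mice shared a cage or litter is not given. The libraries held 60514417 to 74210869 counts, and ethanol-exposed mouse 3 stood apart from the other two on the second principal component (17.5% of the variance).

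Angiotensinogen is a plasma protein made mainly by hepatocytes. Renin cuts it to angiotensin I, and angiotensin-converting enzyme (Ace) removes the last residues to give angiotensin II, which acts through the type 1 receptor (Agtr1a). Other peptidases trim or degrade these peptides. Enpep (aminopeptidase A) removes the first residue of angiotensin II, Anpep (aminopeptidase N) the next, Lnpep (insulin-regulated aminopeptidase) binds and cleaves short angiotensin peptides, Mme (neprilysin) makes angiotensin 1-7 from angiotensin I, and Prcp (prolylcarboxypeptidase) removes the final residue of angiotensin II.

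Agt was the gene of the group whose level differed most. Normalized expression is given in CPM, the reads of a gene relative to all counted reads after TMM scaling, which allows for a few abundant genes taking a larger share of the reads. In ethanol-exposed mice Agt was at 4743, 4722 and 6329 CPM, and in control mice at 419.2, 423.3 and 408.1 CPM. The lowest ethanol-exposed mouse was far above the highest control mouse, and the 3 control mice lay close together while ethanol-exposed mouse 3 was above the other two. The means were 5264 ± 922 and 417 ± 7.85 CPM (SD, n = 3 each), a log2 fold change of 3.66 (SE 0.162, 95% interval 3.28 to 4.04), and of 3.52 (without ethanol-exposed mouse 3) to 3.73 with each library left out in turn. Among all genes ranked by FPKM, the deposited measure that adjusts fragments for gene length and sequencing depth, Agt stood at place 175 to 181 in the control livers and 48 to 54 in the ethanol-exposed livers. The 11 hepatocyte markers in the table summed to 133200 to 136100 CPM in ethanol-exposed and 74640 to 86810 CPM in control mice. Of the 11, 3 rose past the DEG thresholds defined below, as did 10.4% of all genes tested. As a share of all counts, with no TMM scaling, the same markers overlapped (10.2 to 11.2% against 9.38 to 11.0%), and most of the sum was Alb, the albumin gene. Their part in the level of Agt was not tested, and in bulk tissue fewer cells of a type and less RNA per cell cannot be told apart.

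The angiotensin I stretch of Agt is shown because it is what the peptidases below act on. Agt (ENSMUSG00000031980) spans chr8:124556534-124569706 on GRCm38, and the stretch lies in exon 2, codons 30 to 39 of its longest GENCODE M21 coding sequence, on the minus strand at chr8:124564450-124564479 of GRCm38. Capitals mark the angiotensin II codons, and the lower case end is what Ace removes.
Agt angiotensin I codons: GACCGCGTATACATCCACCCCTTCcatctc

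The RefSeq promoter of Agt (GRCm38.p6, chr8:124569707-124569956, minus strand) is shown up to the transcription start because the gene's level differed so widely. The window searched ran from 250 bases before to 50 bases after the start, on both strands. Capitals mark a match to TTCNNNGAA, the letters bound by STAT factors, which starts at -172, and a TATA box (TATAAA) at -30. TTCNNNGAA was present in 8.3% and TATAAA in 13.6% of all 32851 promoters of that length. AGAACA, a glucocorticoid receptor half-site found in 19.0% of them, and TTGCNNAA, a C/EBP-type site found in 10.8%, are not in this window of Agt. In the same window of other genes of the group, TTCNNNGAA was also found in Enpep (-141) and Mme (-166). TATAAA was found in Ace (-31) and Enpep (-52 and -1), and TTGCNNAA in Enpep (-121) and Lnpep (-103). Ace, Enpep, Lnpep and Mme were not past the DEG thresholds defined below, so these matches are not particular to Agt. The matches in Agt do not overlap, and a match is no evidence of binding.
Agt promoter: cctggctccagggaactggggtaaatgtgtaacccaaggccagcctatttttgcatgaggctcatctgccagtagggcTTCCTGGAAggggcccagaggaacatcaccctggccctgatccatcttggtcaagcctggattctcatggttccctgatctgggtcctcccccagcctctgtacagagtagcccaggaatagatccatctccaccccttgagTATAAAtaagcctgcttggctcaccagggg

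**Figure D1:**
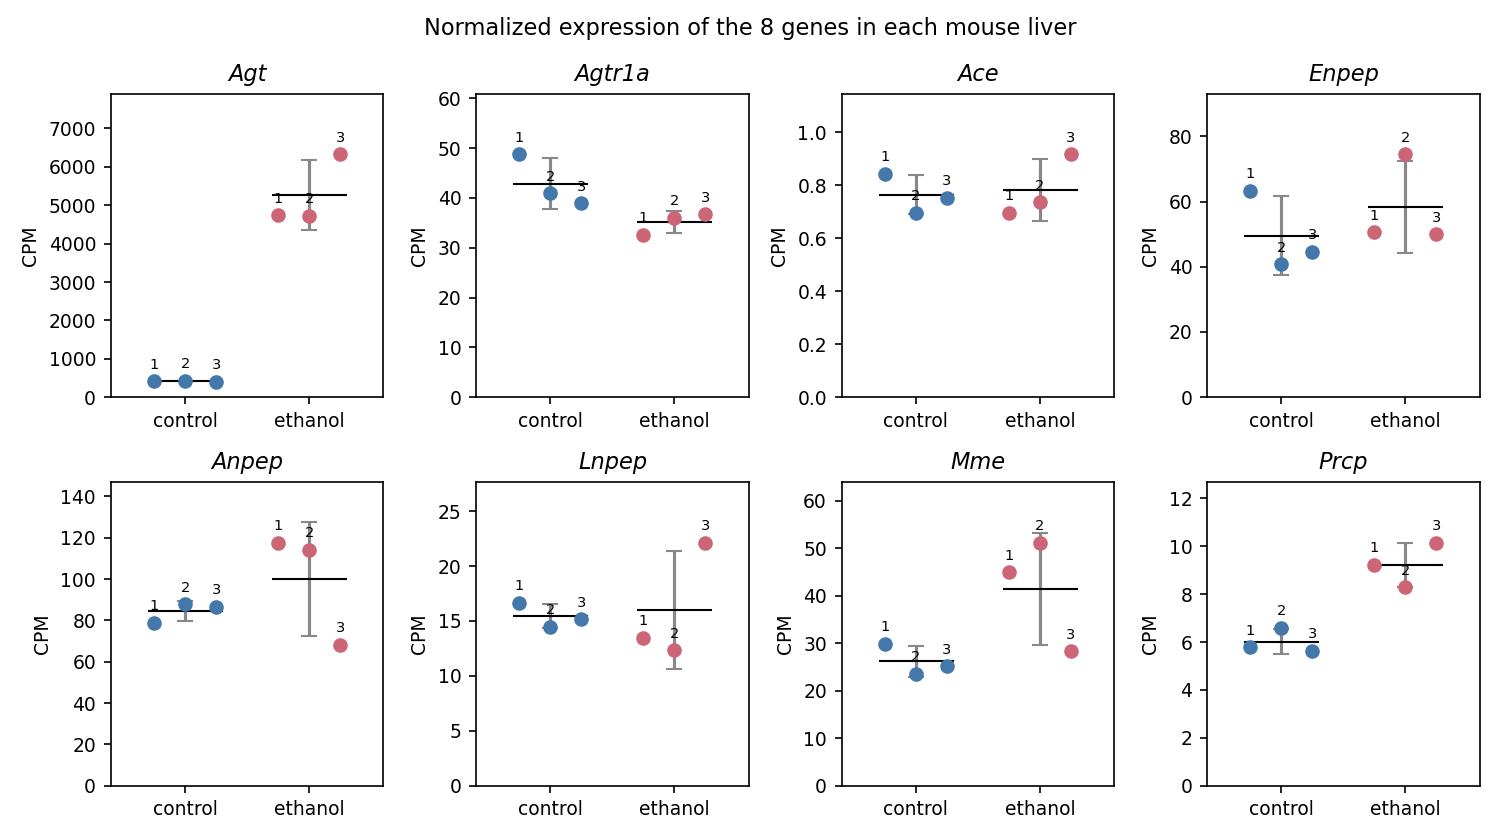
Normalized expression (CPM, vertical axis from 0) of each of the 8 genes in the 3 control mice (blue) and the 3 ethanol-exposed mice (red), numbered by mouse. Black lines are group means and grey bars 1 SD. The Agt points of the groups lie far apart (4722 CPM or more against 423.3 CPM or less), whereas most of the others overlap.

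Of the 8 genes, 1 (Agt) was past the study's thresholds for differentially expressed genes (DEGs, adjusted p under 0.05 and log2 fold change beyond 1) in the higher direction and 0 in the lower by edgeR, and DESeq2 gave the same counts. Over all 16717 genes tested, 10.4% were past them in the higher and 13.8% in the lower direction. The CPM values of the groups did not overlap for Agt and Prcp (higher) and for Agtr1a (lower), while the other 5 genes overlapped. Among all genes tested, 28% were higher and 31% lower without overlap. The 8 genes had a median log2 fold change of 0.24, against -0.04 over the genes tested. The choice of the genes used this same contrast, so nothing is read from these counts.

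The receptor gene Agtr1a, which couples angiotensin II to calcium signalling, was at 32.6, 36.1 and 36.7 CPM in ethanol-exposed mice and at 48.8, 40.9 and 38.9 CPM in control mice. All 3 ethanol-exposed mice were below all 3 control mice, by a narrow gap. The log2 fold change was -0.29 (SE 0.121, 95% interval -0.57 to -0.0039). It was -0.31 without ethanol-exposed mouse 3, and -0.19 (without control mouse 1) to -0.36 with each library left out in turn. Agtr1a (ENSMUSG00000049115, chr13:30336441-30382867, plus strand) has its whole coding sequence in 1 exon. A non-coding gene on the same strand, Gm48161, lies within Agtr1a and held 29 to 130 counts against at least 1878 for Agtr1a.

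Ace, which converts angiotensin I to angiotensin II, was the least expressed of the group, with 40 to 79 counts per liver. Its values were 0.695, 0.736 and 0.916 CPM in ethanol-exposed mice and 0.842, 0.696 and 0.753 CPM in control mice. The groups overlapped fully, and the log2 fold change of 0.03 had a wide 95% interval of -0.72 to 0.79 (SE 0.322) and ranged from -0.08 (without ethanol-exposed mouse 3) to 0.11 with each library left out.

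The zinc peptidases of the group, Ace, Enpep, Anpep, Lnpep and Mme, carry a short motif whose histidines hold the catalytic zinc. Its codons are shown, from the GENCODE M21 coding sequences on GRCm38, because the motif is common to these enzymes. Capitals mark the histidine and glutamate codons at its start and the histidine codon at its end. Ace has the motif in both of its catalytic domains, and Prcp, a serine peptidase, and Agtr1a were not searched. On the same build Ace (ENSMUSG00000020681) spans chr11:105967945-105989964, Enpep (ENSMUSG00000028024) chr3:129269175-129332720, Anpep (ENSMUSG00000039062) chr7:79821803-79861059, Lnpep (ENSMUSG00000023845) chr17:17521410-17625050 and Mme (ENSMUSG00000027820) chr3:63241537-63386030.
Ace exon 8, codons 395 to 399, chr11:105972910-105972924, plus strand: CACGAGatgggcCAC
Ace exon 20, codons 993 to 997, chr11:105985094-105985108, plus strand: CACGAAatgggcCAC
Enpep exon 5, codons 385 to 389, chr3:129309772-129309786, minus strand: CACGAActtgtaCAC
Anpep exon 5, codons 387 to 391, chr7:79839166-79839180, minus strand: CACGAGctggccCAT
Lnpep exon 6, codons 464 to 468, chr17:17570877-17570891, minus strand: CACGAActggcaCAT
Mme exon 18, codons 584 to 588, chr3:63362021-63362035, plus strand: CATGAAatcacaCAT

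Enpep, which makes angiotensin III from angiotensin II, was at 50.6, 74.6 and 50.0 CPM in ethanol-exposed mice and at 63.3, 40.7 and 44.7 CPM in control mice. Mouse 2 of the ethanol group was the highest and the groups overlapped. The log2 fold change was 0.24 (SE 0.223, 95% interval -0.29 to 0.76), and it was 0.45 without control mouse 1, 0.02 without ethanol-exposed mouse 2 and 0.35 without ethanol-exposed mouse 3.

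Anpep, which acts on angiotensin III, was at 117.6, 114.3 and 68.2 CPM in ethanol-exposed mice and at 79.0, 87.8 and 86.7 CPM in control mice. Ethanol-exposed mice 1 and 2 were above every control mouse and mouse 3 was below every control mouse. The log2 fold change was 0.24 (SE 0.206, 95% interval -0.24 to 0.73) and was 0.47 without ethanol-exposed mouse 3, but 0.11 and 0.14 without ethanol-exposed mouse 1 or 2.

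Lnpep, also known for trafficking with the insulin-responsive glucose transporter, showed the reverse arrangement. It was at 13.5, 12.4 and 22.1 CPM in ethanol-exposed mice, with mouse 3 the highest of all 6, and at 16.7, 14.5 and 15.2 CPM in control mice. The log2 fold change was 0.05 (SE 0.227, 95% interval -0.48 to 0.58) and ran from -0.25 without ethanol-exposed mouse 3, a change of sign, to 0.20 without ethanol-exposed mouse 2.

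Mme, a membrane endopeptidase, was at 45.0, 51.2 and 28.3 CPM in ethanol-exposed mice and at 29.9, 23.6 and 25.1 CPM in control mice. Ethanol-exposed mice 1 and 2 were above the control mice, and mouse 3 was within their range. The log2 fold change was 0.66 (SE 0.222, 95% interval 0.14 to 1.18), and 0.89 without mouse 3 (0.48 without mouse 2).

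Prcp, the serine carboxypeptidase (ENSMUSG00000061119, chr7:92874470-92934583, plus strand), was at 9.23, 8.29 and 10.2 CPM in ethanol-exposed mice and at 5.79, 6.60 and 5.63 CPM in control mice. The groups did not overlap on this scale, and the log2 fold change was 0.62 (SE 0.153, 95% interval 0.26 to 0.98), and 0.56 (without ethanol-exposed mouse 3) to 0.69 with each library left out. Its counts before scaling were 507 to 554 in ethanol-exposed and 464 to 543 in control mice.

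The sign of the difference changed with the scale of comparison for 6 of the 8 genes and not for Agt and Agtr1a. For Ace (-0.08) and Lnpep (-0.25) it also turned under TMM scaling without ethanol-exposed mouse 3. TMM factors were 0.768 to 0.836 in the ethanol-exposed and 1.26 in the control libraries. With library size alone as the scaling, which moved the median over the genes tested from -0.04 to -0.71, Agt had a log2 fold change of 2.99 and Agtr1a one of -0.96. On that scale Enpep and Anpep were at -0.42, Lnpep at -0.63 and Ace at -0.64, while Mme was at 0.00 and Prcp at -0.05. Relative to the median change of the hepatocyte marker genes (0.69), the values were close to these, with 2.97 for Agt and -0.98 for Agtr1a. Agt stayed positive (2.85 to 3.73) and Agtr1a negative (-0.98 to -0.19) under all 17 alternatives that gave them a value. The sign turned in at least 3 alternatives for each of the other 6 genes, Ace (8 of 16), Lnpep (7 of 16), Enpep and Anpep (6 of 17 each), Prcp (5 of 16) and Mme (3 of 16).

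**Figure D2:**
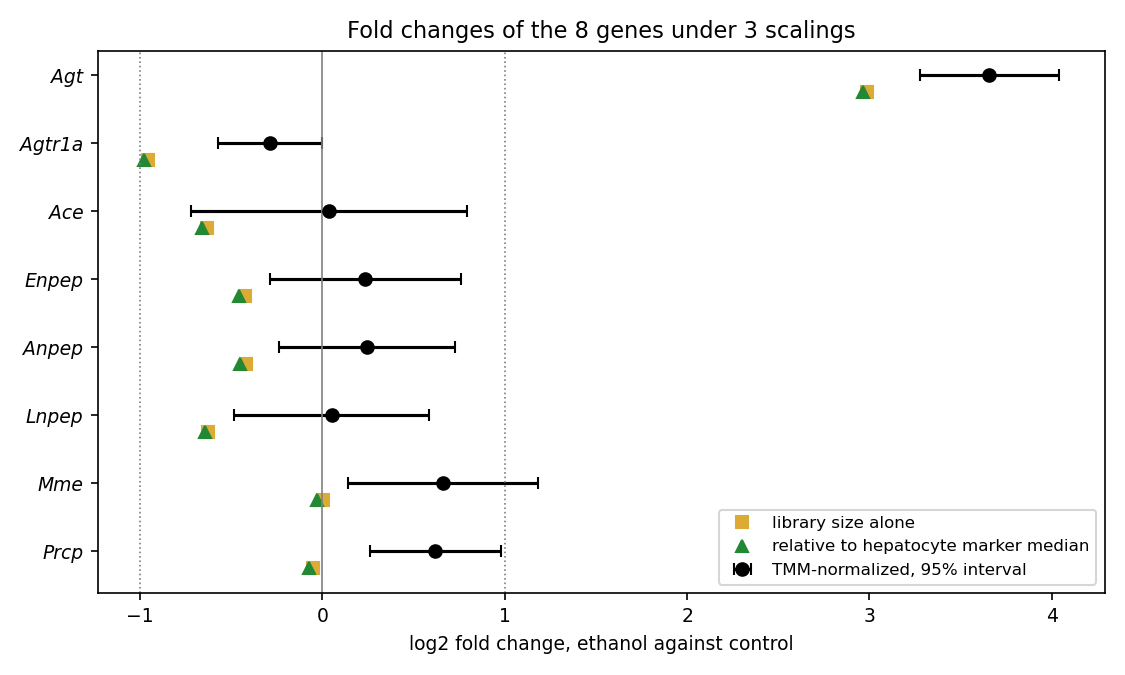
Log2 fold change of each gene (horizontal axis, ethanol-exposed against control mice) with TMM scaling (black, bars are 95% intervals), library size alone (yellow squares) and relative to the hepatocyte marker median (green triangles). Agt lies beyond the dotted line at 1 under each scaling, and the other genes move from around 0 or above to 0 or below, except Agtr1a, which is below 0 throughout.

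Ratios between genes of the same liver are free of any scaling of the library. The ratio of Agt to Agtr1a in FPKM was 214, 193 and 254 in ethanol-exposed mice and 12.7, 15.2 and 15.4 in control mice. All 7 ratios of Agt to another of the genes were higher in every ethanol-exposed mouse than in every control mouse, with log2 differences from 3.02 (Agt to Mme) to 3.93 (Agt to Agtr1a). Of the 21 ratios that leave out Agt, 7 did not overlap between the groups. Over all pairs of tested genes with FPKM above 0 in every liver, 55.7% of such ratios did not overlap, in either direction, so nothing is read from these counts. The 7 ratios without Agt that did not overlap were Agtr1a to Ace, Enpep, Mme and Prcp, Ace to Prcp, Lnpep to Prcp and Anpep to Mme. Each was lower in ethanol-exposed mice. Agtr1a to Prcp was at 6.98, 8.61 and 7.14 in ethanol-exposed and at 16.7, 12.2 and 13.7 in control mice, a log2 difference of -0.90.

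**Figure D3:**
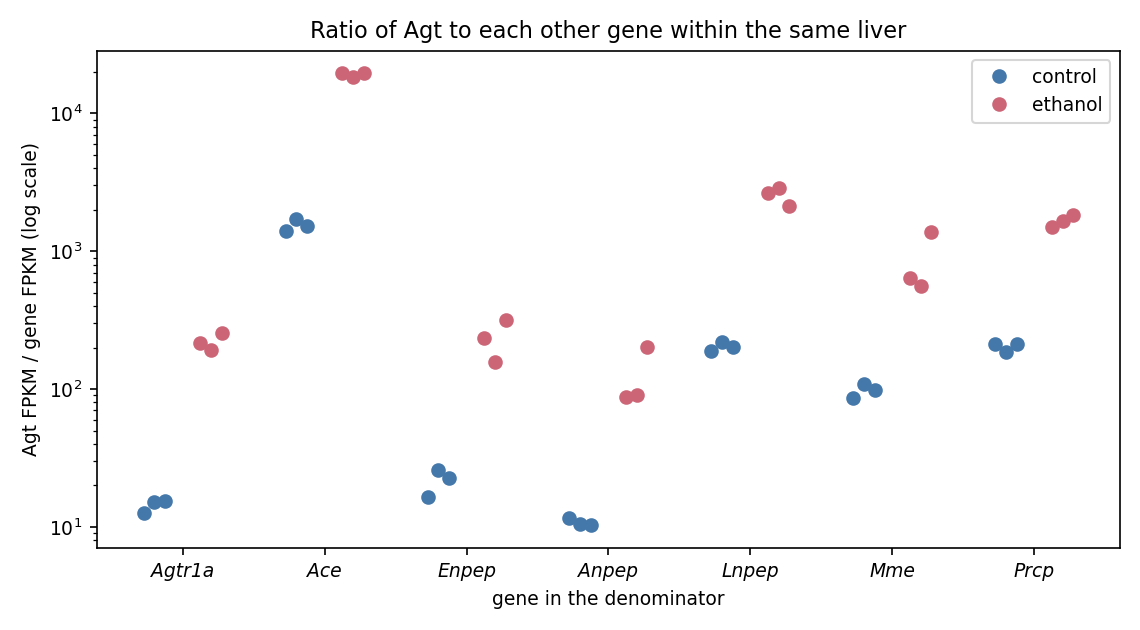
Ratio of Agt FPKM to the FPKM of each other gene in the same liver (log axis), with one point per mouse (control blue, ethanol red). All 3 ethanol-exposed mice lie above all 3 control mice for each of the 7 genes.

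Levels of different genes were compared in FPKM. In control mice the order was Agt (260 ± 5.32, SD, n = 3), Anpep (24.1 ± 1.31), Agtr1a (18.2 ± 2.25), Enpep (12.4 ± 3.05), Mme (2.68 ± 0.342), Lnpep (1.29 ± 0.0962), Prcp (1.28 ± 0.113) and Ace (0.169 ± 0.0162). The ranges of Lnpep and Prcp overlapped, and those of the other neighbours did not. In ethanol-exposed mice Agt was at 2055 ± 305 FPKM, Anpep at 18.0 ± 5.38, Agtr1a at 9.34 ± 0.809 and Enpep at 9.25 ± 2.69, and the ranges of Agtr1a and Enpep overlapped. Mme (2.68 ± 0.861), Prcp (1.24 ± 0.0769), Lnpep (0.830 ± 0.252) and Ace (0.107 ± 0.0150) followed. In FPKM, which has no TMM scaling, Anpep, Agtr1a, Lnpep and Ace (4 of the 8 genes) were lower in every ethanol-exposed mouse than in every control mouse, as were 57.4% of all genes tested. Prcp overlapped on this scale (1.17 to 1.32 against 1.20 to 1.41).

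Of 18 other genes of the renin-angiotensin system, 13 were in the table, and 6 of the 13 had too few counts to be tested. Of the 7 tested, 0 were past the thresholds in either direction (edgeR), with a median log2 fold change of -0.02. Past the thresholds over all genes tested were 10.4% in the higher and 13.8% in the lower direction. At an unadjusted p under 0.05, 3 were higher and 2 lower, the same numbers as by adjusted p. The share of all genes at the unadjusted cut is not given here. By adjusted p alone, 3 rose, namely Atp6ap2 (prorenin receptor, 0.92, adjusted p = 0.000759), Ctsa (a lysosomal carboxypeptidase, 0.75, adjusted p = 0.00115) and Nln (neurolysin, 0.61, adjusted p = 0.00339, with the sign turned to -0.06 by library size alone). Over the genes tested, 21.5% were higher and 21.5% lower by adjusted p alone. In the other direction 2 fell by adjusted p, Thop1 (thimet oligopeptidase, -0.88, adjusted p = 0.0468) and Prep (prolyl endopeptidase, -0.64, adjusted p = 0.0212). With library size alone Atp6ap2 was at 0.26 and Ctsa at 0.08, while Thop1 at -1.53 and Prep at -1.30 were past the DEG thresholds. Without ethanol-exposed mouse 2 Thop1 was at -1.13 and past them, and without ethanol-exposed mouse 3 it was at -0.59 and not past them. Renin itself (Ren1) had 0 to 4 counts per liver, Klk1 0 to 7, and Cma1, Mcpt4 and Cpa3 had 0 in every liver. The Mas receptor gene (Mas1), whose product binds angiotensin 1-7, had 0, 2 and 0 counts in ethanol-exposed mice and 8, 25 and 24 in control mice. These were too few for the edgeR filter. DESeq2, run with no filter, called Mas1 lower (adjusted p = 0.0186), whereas edgeR with no filter on low counts called 0 genes of this list lower. Ren2, Agtr1b, Agtr2, Mrgprd and Ctsg were not found by name in the liver RNA-seq table and so were not analysed.

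Among peptidases of the same families as the members, calls went in both directions, as over all genes tested (10.4% higher, 13.8% lower). Of 17 listed, 14 were in the table and 9 were tested, and 1 of these rose past the thresholds, Aopep (aminopeptidase O, 40.0 ± 6.11 against 17.5 ± 0.887 CPM, log2 fold change 1.19, adjusted p = 0.000766). In the other direction 2 fell, Trhde (which degrades thyrotropin-releasing hormone, 0.499 ± 0.0788 against 1.30 ± 0.114 CPM, -1.38, adjusted p = 0.0107) and Rnpep (aminopeptidase B, 15.8 ± 2.25 against 32.2 ± 1.24 CPM, -1.03, adjusted p = 0.00118). Their median was 0.08, and nothing is read from the counts. With library size alone Aopep was at 0.52 and no longer past the thresholds, and without control mouse 3 Trhde (24 to 117 counts) lost its call at a similar fold change (-1.32), as Rnpep did without ethanol-exposed mouse 3 (-0.92). With limma on log2(FPKM + 1) Trhde was at -0.19, and with a pseudocount of 0.1 at -0.99, neither past the thresholds.

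Several of these enzymes also cleave kinins. Of 7 kinin genes tested, 1 rose past the thresholds and 0 fell by edgeR, with a median of 0.57, and 0 fell by DESeq2. Over all genes tested, 10.4% were higher and 13.8% lower past them, so nothing is read from this count. At an unadjusted p under 0.05, 4 were higher and 1 lower, and the share of all genes at that cut is not given here. By adjusted p alone, 4 were higher and 0 lower, against 21.5% of all genes tested in each direction. The gene past the thresholds was Kng2 (519 ± 17.1 against 177 ± 16.6 CPM, 1.56, adjusted p = 0.000173). Kng1, its near-identical neighbour, was at 0.86 on the same scale (adjusted p = 0.00116). Kng1 and Kng2 encode kininogens of almost the same sequence, so the division of reads between them is uncertain. With DESeq2 Kng2 was at 1.53 and past the thresholds, and with library size alone it was at 0.89, below the threshold on the fold change.

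Among 13 genes that couple or terminate signalling of the angiotensin receptor, 1 rose and 1 fell past the thresholds, with a median of 0.08. The shares over all genes tested were 10.4% and 13.8%, so nothing is read from these counts. Rgs2, which shortens signalling by Gq proteins, rose (4.57 ± 1.87 against 1.37 ± 0.269 CPM, 1.74, adjusted p = 0.00615). Plcb3, a phospholipase C activated by Gq, fell (7.40 ± 1.74 against 19.2 ± 1.47 CPM, -1.38, adjusted p = 0.00154). Rgs2 was not past the thresholds with limma on log2(FPKM + 1), at 0.40.

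Among transcription factors known to act on Agt, 10 were tested. Of these, 4 rose past the thresholds and 0 fell by edgeR (3 and 0 by DESeq2), against 10.4% and 13.8% of all genes tested, with a median of 0.67. At an unadjusted p under 0.05, 6 were higher and 0 lower, and the share of all genes at that cut is not given here. By adjusted p alone, 5 were higher and 0 lower, against 21.5% of all genes tested in each direction. Cebpd rose from 4.83 ± 0.268 to 81.1 ± 19.1 CPM (4.07, adjusted p = 6.8e-05) and Cebpb from 72.1 ± 6.48 to 709 ± 114 CPM (3.30, adjusted p = 6.4e-05), both of the C/EBP family that acts on acute-phase genes. Stat3, which carries interleukin-6 signals to the nucleus, rose from 67.4 ± 3.90 to 275 ± 39.0 CPM (2.03, adjusted p = 0.000121). Rela, a subunit of NF-kB, rose from 36.4 ± 3.56 to 73.3 ± 7.77 CPM (1.01, adjusted p = 0.00109), just beyond the threshold on the fold change, and it lost its call in 12 of 16 alternatives (0.27 to 1.09). The list was written with results of these libraries known, and no part of these factors in the level of Agt was tested.

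**Figure D4:**
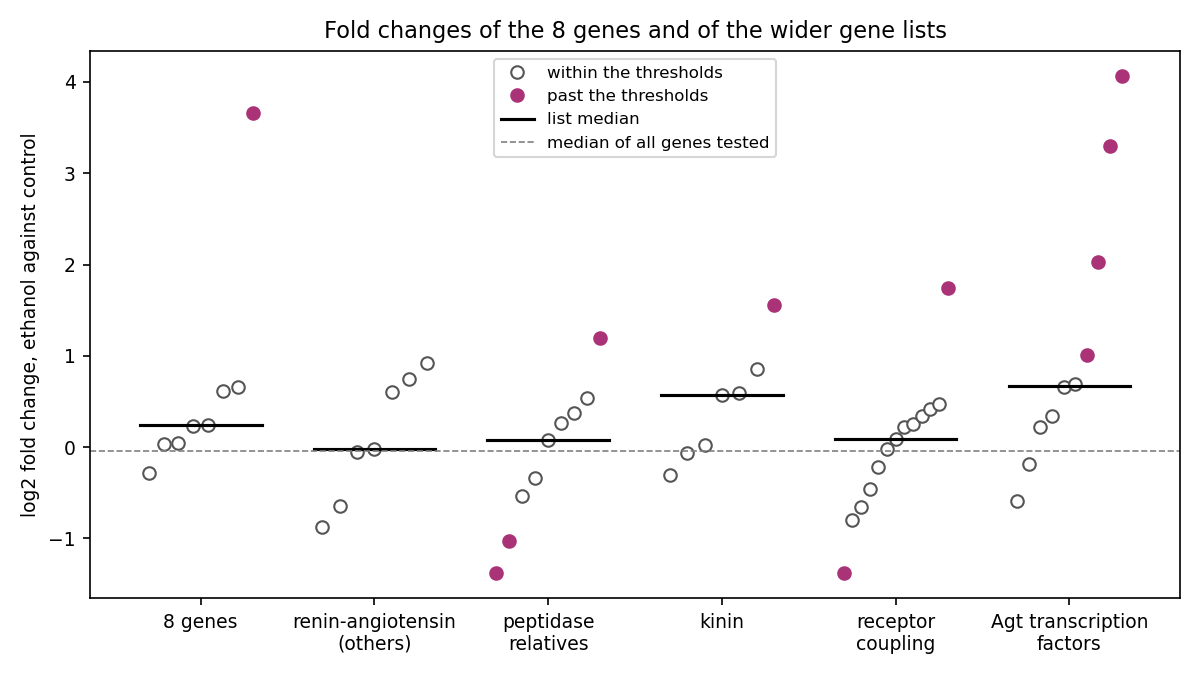
Log2 fold change (vertical axis) of the 8 genes and of the tested genes of each wider list, filled where past the DEG thresholds, with the list median (black line) and the median of all genes tested (dashed, -0.04). Agt (3.66) and the transcription factors Cebpd and Cebpb (4.07 and 3.30) are the highest points.

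For each of the 8 genes, the most similar profile over the 6 livers was sought among 11306 genes (11307 for Ace) of established symbol and at least 1 CPM, by Euclidean distance of centred log2 CPM. For Agt these were St3gal5 (0.34), Itprip (0.35) and Tead1 (0.39), whose own log2 fold changes were 3.64, 3.84 and 3.57. For Agtr1a they were Uroc1 (0.06), Mtm1 (0.08) and Clint1 (0.12), for Mme Hsd17b11 (0.15), Gtf2e1 (0.17) and Stk40 (0.19), and for Prcp Bbx, Casp8 and Dus1l (each 0.13). For Enpep they were Glce (0.16), Sox6 (0.23) and Myo1d (0.24), and for Anpep Smyd2 (0.15), Arhgap26 (0.15) and Anxa5 (0.17). For Lnpep they included Thap11 (0.12) and Rnf216 (0.15), and for Ace they were Mta1 (0.10), Fnbp1 (0.11) and Klc1 (0.11).

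Neutrophil markers were at 3.18 to 15.2 CPM in ethanol-exposed mice, with mouse 3 the highest, and at 1.15 to 1.79 CPM in control mice, and 4 of the 5 tested rose. Kupffer markers (92.8 to 129 against 125 to 138 CPM) and stellate markers (162 to 189 against 149 to 194 CPM) overlapped in sum, with 2 of 8 Kupffer markers lower by adjusted p alone (Clec4f at -0.37 and Csf1r at -0.71, neither past the threshold on the fold change) and, of 10 stellate markers, 2 lower past the thresholds (Col1a1 at -1.90 and Col3a1 at -2.44) and 2 higher by adjusted p alone (Dcn at 0.43 and Colec11 at 0.58). Endothelial markers were at 144 to 230 against 158 to 171 CPM, with 2 of 10 higher past the thresholds (Cdh5 at 1.19 and Lyve1 at 3.59) and 2 lower (Kdr at -1.57 and Tek at -1.19), and Clec4g lower by adjusted p alone (-0.998). Cholangiocyte markers were at 57.6 to 75.0 against 31.9 to 73.3 CPM, with Sox9 higher (2.78). Markers of kidney proximal tubule and intestine, tissues rich in these peptidases, were at 21.0 to 35.1 against 19.8 to 21.1 CPM, with Slc34a1 at 0 in every liver and nearly all of the sum from Fabp2 (34.6, 33.2 and 20.9 against 19.3, 19.3 and 20.1 CPM). As a share of all counts, with no TMM scaling, the Kupffer, stellate and endothelial sums were each lower in every ethanol-exposed mouse than in every control mouse, the cholangiocyte and the kidney and intestine sums overlapped, and the neutrophil sum was higher without overlap. Over all genes tested, 10.4% were higher and 13.8% lower past the thresholds, and 21.5% were higher and 21.5% lower by adjusted p alone. Nothing is read from the counts of markers called, and the part of these markers in the results was not tested.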

How the data were processed

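For these 6 mouse liver libraries the deposited table gives, for each gene, raw read counts in whole numbers and the FPKM values that the authors derived from them with gene length and depth. Total RNA was extracted with TRIzol and sequenced on a NovaSeq instrument with paired-end reads. The aligner, the counting software and its use of strand are not given in the sources used here, so overlapping genes are uncertain. The submitters' processing notes name GRCm38 and mm10, but the gene starts in the deposited table lie 109177 to 726686 bases from RefSeq GRCm38.p6 starts. Coordinates printed are therefore those of GRCm38 in GENCODE M21 or RefSeq, never those of the table. RefSeq promoters were found for 7 of the 8 genes.

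Counts were scaled by TMM, filtered by filterByExpr and tested with edgeR 4.0.16 (quasi-likelihood, two-sided, Benjamini-Hochberg over 16717 genes) in R 4.3.3, with no covariates. DEGs had an adjusted p under 0.05 and an absolute log2 fold change over 1. DESeq2 1.42.0 and limma 3.58.1 on log2(FPKM + 1) were alternatives, as were other scalings, filters, thresholds and each library left out. limma without ethanol-exposed mouse 3 and the ratios between genes were added after seeing the data. The code was tested on simulated data. The table holds 1 count column that matches no library, which was not used.

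Members and lists were chosen with earlier results of these data known. The rule names every member, up to 4 genes past the thresholds per list and the 3 nearest profiles of each member, and other genes with values were named after their values were seen. Some genes that this rule or the lists cover are not reported here. Counting error is small at these depths except for genes of few counts, such as Ace, Trhde, Mas1 and the neutrophil markers, and the 3 mice per group limit the precision.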

Additional observations from a re-analysis of the deposited data

How the results depend on the processing

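Agt was the 1 member past the thresholds, and 0 were lower, under every scaling, tool and omitted library that was run. With adjusted p alone, 3 members were higher (Agt, Mme, Prcp), against 21.5% of all genes, as were 3 other renin-angiotensin genes, 3 peptidase relatives, 4 kinin genes, 2 receptor coupling genes and 5 transcription factors, and 2 renin-angiotensin genes, 3 relatives and 1 coupling gene were lower, against 21.5% of all genes. With library size alone, 846 genes were higher and 5385 lower, no kinin gene or relative was higher (0 each), and 2 renin-angiotensin genes, 4 relatives, 4 coupling genes and 1 transcription factor were lower. With DESeq2, run on all 26459 genes with a count, 1914 genes were higher and 2764 lower, and 1 renin-angiotensin gene (Mas1) was lower. With edgeR and no filter on low counts, 1607 of the same number were higher and 2203 lower, and 0 renin-angiotensin genes were lower. With limma on log2(FPKM + 1), 408 genes were higher and 1713 lower, 0 relatives, kinin or coupling genes were higher, and 1 relative, 2 coupling genes and 1 factor were lower. With limma on log2(FPKM + 0.1), 745 genes were higher and 5026 lower, 0 relatives, kinin or coupling genes were higher, and 2 renin-angiotensin genes, 3 coupling genes and 1 factor were lower. With limma at a mean FPKM of at least 5, which leaves fewer genes, 254 were higher and 716 lower, and 0 relatives, kinin or coupling genes were higher, nor were relatives or coupling genes lower (0). Ace, Lnpep, Mme and Prcp got no value under it. With limma without ethanol-exposed mouse 3, 478 genes were higher and 1729 lower, 0 relatives, kinin or coupling genes were higher, and 1 relative, 3 coupling genes and 1 factor were lower. The cause of these differences was not tested. Leaving out each library gave 1490 to 1920 genes higher and 1713 to 2902 lower, 0 to 2 renin-angiotensin genes lower (2 without ethanol-exposed mouse 2, 1 without control mouse 1), 1 to 2 relatives lower (1 without ethanol-exposed mouse 3 or control mouse 3), 1 to 3 coupling genes lower (3 without ethanol-exposed mouse 3), 0 to 1 factor lower (1 without ethanol-exposed mouse 3) and 3 to 4 factors higher. Aopep, Kng2 and Rgs2 lost their call in at least 3 of the alternatives and Trhde in 4, and Rela in 12 of 16. Members kept 6 to 8 of 8 places in the order of FPKM.

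Replicate numbers did not pair the mice (correlations of same-numbered mice -0.03, -0.02 and -0.02, and no ethanol-exposed mouse correlated best with its own number). With the replicate number as a block, 1518 genes were higher and 2000 lower, 1 member was past the thresholds, and the log2 fold change of Agt was 3.64 (3.66 without the block).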
